A study of Mus musculus with 5 samples.

Results

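Hox genes encode homeodomain transcription factors, and the mouse keeps them in 4 clusters, Hoxa on chromosome 6, Hoxb on chromosome 11, Hoxc on chromosome 15 and Hoxd on chromosome 2. The genes described here are every row of the deposited count table whose gene name is Hoxa, Hoxb, Hoxc or Hoxd followed directly by a number. They came to 24 of 26369 rows, with 6 genes of the Hoxa, 8 of the Hoxb, 5 of the Hoxc and 5 of the Hoxd cluster. Every row of the table has at least 1 count over the 5 libraries. A further 15 of the 39 Hox genes in the GENCODE M21 annotation have no row and were not analysed here, among them Hoxa3, Hoxa10, Hoxb1, Hoxc10 and Hoxd13.

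The libraries held striatal RNA, depleted of ribosomal RNA, from wild-type mice (WT, n = 3 libraries) and from mice of the R6/1 line (n = 2 libraries). R6/1 is a model of Huntington's disease in which exon 1 of the HD gene, with a CAG repeat given as 115 in the labels, is carried as a transgene beside the animal's own huntingtin genes. The R6 lines are known to drive it from the human huntingtin promoter, which is active in many tissues. Both groups shared a mixed CBA and C57BL/6 background (50% of each). The sources used here give no age, sex or number of animals behind a library. The sample titles carry a different number for each library, but no label says that these are separate animals. The p-values therefore rest on library-to-library spread that may be technical.

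Along the body axis, genes at the low-numbered end of a cluster are used further forward, in the hindbrain, and genes at the high-numbered end further back along the spinal cord. The forebrain, of which the striatum is a part, develops in front of the Hox domain. There the clusters are known to lie under Polycomb repression, in which Polycomb repressive complex 2 methylates histone H3 and Polycomb repressive complex 1 binds the mark. Hox proteins bind DNA together with TALE cofactors of the Pbx and Meis families.

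The counts behind each gene are reads assigned to it by sequence, so the stretch that Hox genes have most nearly in common is shown first. Below are the 33 bases that code for the recognition helix of the homeodomain, the helix that contacts DNA, in the 3 genes on which the results turn and in Hoxb7, the most counted member. They were read from GENCODE M21 transcripts, and capitals mark the 8 positions at which the 4 genes are not all alike.
Hoxc4: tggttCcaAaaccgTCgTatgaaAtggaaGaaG
Hoxc5: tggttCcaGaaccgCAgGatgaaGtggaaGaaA
Hoxc6: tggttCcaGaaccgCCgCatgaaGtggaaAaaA
Hoxb7: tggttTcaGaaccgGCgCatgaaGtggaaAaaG
The other 25 positions were shared, and pairs of these 4 genes differed at 3 to 6 positions. Of the 24 members, 13 code for exactly this helix, and Hoxb6 and Hoxb7 had 0 differing bases over it. Over whole transcripts, 273 of 276 pairs of members shared no stretch of 50 bases, and Hoxc4, Hoxc5 and Hoxc6 shared none with each other or with another member. Hoxd3 and Hoxd4 had 339 stretches of that length in common, 11.3% of those of Hoxd4, so counts for these genes are uncertain. In the same annotation the gene model of Hoxc5 overlaps those of Hoxc6, Hoxc8, Hoxc9 and Hoxc10, and how reads in the overlap were assigned is not given in the sources used here.

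Striatal Hox counts were low in every library. Libraries held 19630036 to 34379064 counts, and each R6/1 library was deeper than each WT library, but the pooled depth of the groups was close, 65639344 counts in WT and 64250370 in R6/1. Scaled to a common library size (CPM), a count of 1 was worth 0.0291 to 0.0509 CPM. Over the 24 Hox genes the counts summed to 55, 45 and 40 in WT replicates 1 to 3, and to 131 and 128 in the R6/1 libraries. The median row of the whole table had 333 counts over all libraries. In a WT library 8 to 11 of the Hox genes had a count, and in an R6/1 library 17 to 19 had one. A deeper library also counts more genes of low level, and the share of all rows counted per library was not compared. Levels below are in CPM scaled by effective library size (TMM), as mean ± SD.

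WT libraries also differed in how much of a neighbouring tissue they held. Choroid plexus genes (10 listed, such as Ttr and Kl) summed to 3676 and 3589 CPM in WT replicates 1 and 2, but to 98.8 CPM in WT replicate 3, 129 CPM in R6/1 replicate 1 and 47.0 CPM in R6/1 replicate 2. Markers of the medium spiny neuron, the main cell type of the striatum, were high in all libraries and lower in R6/1, with sums of 6088 to 7059 CPM in WT and 1711 to 1779 CPM in R6/1. The markers of hindbrain and spinal cord, where Hox genes are normally used, summed to 8.36 to 11.6 CPM in WT and 7.67 to 8.39 CPM in R6/1. In that list Lbx1, Tlx3 and Fev had 0 to 2 counts in any library. Of its 4 members that could be tested, 0 rose and 1 fell in R6/1, against 9.72% and 12.8% of all tested genes. The faller was Egr2, a hindbrain segment gene that is also induced by neuronal activity (log2 fold change -2.74, edgeR adjusted p = 0.00579). The noradrenaline transporter gene Slc6a2, also on that list, had 1, 1 and 3 counts in WT and 14 and 0 in R6/1 replicates 1 and 2. In bulk tissue, fewer cells of a type and less RNA per cell cannot be told apart.

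Neighbouring genes of the Hoxc cluster, Hoxc4, Hoxc5 and Hoxc6, were counted only in R6/1. Hoxc4 (ENSMUSG00000075394), whose paralogs pattern the caudal hindbrain and neck, had 0 counts in each of the 3 WT libraries and 12 and 12 counts in the R6/1 libraries. Hoxc5 (ENSMUSG00000022485) had 0 counts in each WT library and 9 and 25 counts in R6/1 replicates 1 and 2. Hoxc6 (ENSMUSG00000001661), a regulator of brachial motor neurons in the spinal cord, had 0 counts in each WT library and 6 and 6 counts in R6/1. The groups did not overlap for any of the 3 genes. WT replicate 3, with a choroid plexus sum like that of R6/1, also had 0 counts for each. A 0 in that library allows up to 3 counts, or 0.135 CPM. Hoxc6 in R6/1 replicate 1 was at 0.167 CPM (counting interval 0.0614 to 0.364). WT replicate 3 was not used as a test of the choroid plexus difference.

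Exact 95% Poisson intervals, which cover counting error only, were 6.20 to 20.96 for a count of 12, 2.202 to 13.1 for a count of 6, and 4.12 to 17.1 and 16.2 to 36.9 for the Hoxc5 counts of 9 and 25. Hoxc4 and Hoxc6 had equal counts in the R6/1 libraries, whereas Hoxc5 was higher in replicate 2 (0.799 CPM) than in replicate 1 (0.251 CPM). The one-sided limit for a count of 0 is 3 counts, or 0.134, 0.157 and 0.135 CPM in WT replicates 1 to 3 and 0.0471 CPM over the WT group. In R6/1, Hoxc4 was at 0.359 ± 0.035 CPM, Hoxc5 at 0.525 ± 0.388 CPM and Hoxc6 at 0.180 ± 0.017 CPM (SD, n = 2). Against the floor of 3 counts over the WT group, pooled R6/1 counts were at least 7.59-fold higher for Hoxc4, at least 10.8-fold higher for Hoxc5 and at least 3.80-fold higher for Hoxc6. These bounds take the R6/1 counts as measured and leave out their counting error. With 1 library left out, the bound for Hoxc4 was 4.92 without WT replicate 1 and 4.95 without WT replicate 3. That for Hoxc5 was 6.97 and 7.01 without those libraries, 16.98 without R6/1 replicate 1 and 5.33 without R6/1 replicate 2. That for Hoxc6 was 2.46 without WT replicate 1 and 2.48 without WT replicate 3. The 3 genes are singled out because they show this pattern. Of all 26369 rows, 21 (0.0796%) had 0 counts in WT and at least 10 in R6/1, and 3 of those rows were these genes. In the other direction, 46 rows (0.174%) had 0 counts in R6/1 and at least 10 in WT, and 0 of them were Hox genes.

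**Figure D1:**
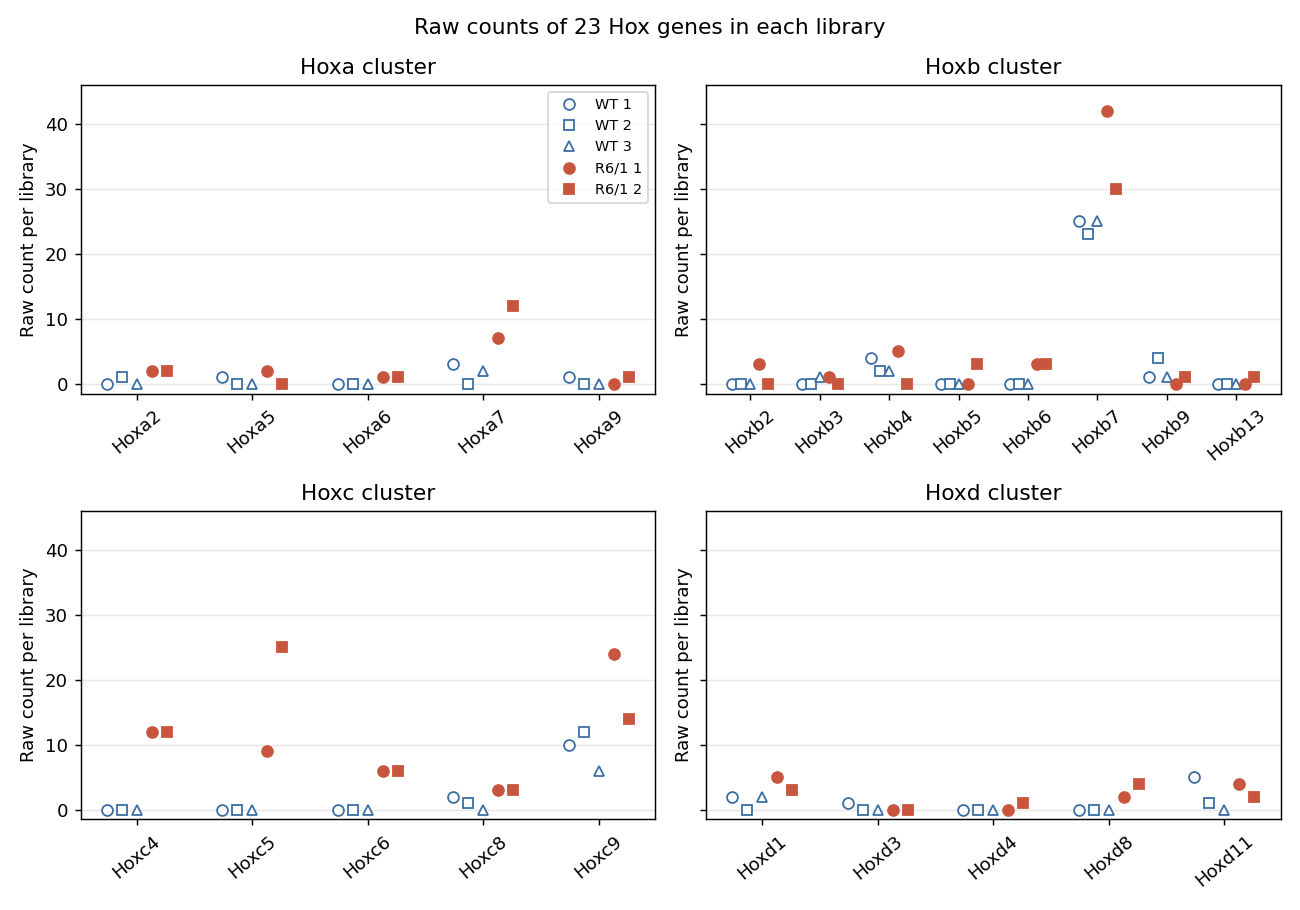
Raw count of 23 of the 24 Hox genes (x axis) in each library (y axis), by cluster, with open symbols for the 3 WT and filled symbols for the 2 R6/1 libraries. Hoxc4, Hoxc5 and Hoxc6 lie at 0 in WT and at 6 to 25 counts in R6/1, while Hoxb7 has 23 to 42 counts in all libraries.

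None of these 3 genes reached the main test, which leaves out genes of low count. Of the 24 Hox genes, 22 failed that filter, and 0 of the remaining 2 were called by the quasi-likelihood test of edgeR (Benjamini-Hochberg adjusted p below 0.05), whereas 9.72% of 17202 tested genes were called higher and 12.8% lower in R6/1. They were Hoxb7 and Hoxc9, with unadjusted edgeR p of 0.676 and 0.491, and DESeq2 and limma-voom also called 0. With no filter, edgeR called 3 of 24 Hox genes higher and 0 lower, against 7.6% and 9.6% of all 26369 rows. The 3 were Hoxc5 (edgeR adjusted p = 0.00231), Hoxc4 (adjusted p = 0.00370) and Hoxc6 (adjusted p = 0.0360). limma-voom with no filter called the same 3 genes, against 6.51% of rows higher and 8.11% lower. The authors' deposited table also has these 3 genes as higher, with adjusted p of 0.000790 for Hoxc4, 0.00191 for Hoxc5 and 0.0327 for Hoxc6, against 10.1% of its rows higher and 10.6% lower. DESeq2 with no filter gave an adjusted p for 2 Hox genes and none for the others, and Hoxc4, Hoxc5 and Hoxc6 were among those without one. By unadjusted DESeq2 p, 2 of the 24 Hox genes were under 0.05. The share of all rows under it was not counted, so this number has no background to be set beside.

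The calls with no filter rested on few libraries. Without R6/1 replicate 1, edgeR called 1 Hox gene, with adjusted p of 0.0154 for Hoxc5 and 0.0570 for Hoxc4. Without R6/1 replicate 2 it called 0, with adjusted p of 0.105 for Hoxc5 and 0.0684 for Hoxc4. Over all 8 alternatives with no filter, the adjusted p ranged from 0.000130 to 0.105 for Hoxc5, from 0.00177 to 0.0827 for Hoxc4 and from 0.0105 to 0.2502 for Hoxc6. The call for Hoxc6 was lost without any one of the 5 libraries, with adjusted p of 0.0657 to 0.177. With the choroid plexus level as a covariate 0 were called, and without WT replicates 1 and 2 together Hoxc4 (adjusted p = 0.00981) and Hoxc5 (adjusted p = 0.000786) were. With WT at 0 a fitted log2 fold change depends on the prior count and is no measure of size. It was 5.94 for Hoxc4, 5.07 for Hoxc5 and 4.99 for Hoxc6 with the covariate, beside 6.25, 6.78 and 5.27 without it.

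Other Hox genes at 0 in WT had still lower counts in R6/1. With Hoxc4 to Hoxc6, 10 of the 24 Hox genes were at 0 in every WT library, and 6 of them had counts in both R6/1 libraries, against 20.8% of the 1253 rows at 0 in WT and 0.986% of all rows. Besides the 3 Hoxc genes these were Hoxb6, with 3 and 3 counts, Hoxd8, with 2 and 4, and Hoxa6, with 1 and 1. Hoxb6 and Hoxd8 were each at least 1.90-fold higher by the floor, and neither passed with no filter (edgeR adjusted p = 0.162 for Hoxb6 and 0.169 for Hoxd8). The remaining 4, Hoxb2, Hoxb5, Hoxb13 and Hoxd4, were counted in only 1 of the R6/1 libraries, with 1 to 3 counts. The mirror pattern, 0 in both R6/1 libraries and counted in every WT library, held for 0 Hox genes and 0.508% of rows. Hoxd3, with 1 count in WT replicate 1, was the one Hox gene with no count in R6/1.

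Promoter sequence is shown for Hoxc4, Hoxd8 and Hoxa6, the genes at 0 in WT and counted in both R6/1 libraries that have an entry in the RefSeq promoter table (GRCm38.p6), and for Hoxb4, which was counted in every WT library. Each is the 250 bases before the start of the gene on its own strand, at chr15:103034145-103034394 (plus) for Hoxc4, chr2:74704365-74704614 (plus) for Hoxd8, chr6:52208673-52208922 (minus) for Hoxa6 and chr11:96318017-96318266 (plus) for Hoxb4. Capitals mark CG dinucleotides, the target of DNA methylation in mammals.
Hoxc4: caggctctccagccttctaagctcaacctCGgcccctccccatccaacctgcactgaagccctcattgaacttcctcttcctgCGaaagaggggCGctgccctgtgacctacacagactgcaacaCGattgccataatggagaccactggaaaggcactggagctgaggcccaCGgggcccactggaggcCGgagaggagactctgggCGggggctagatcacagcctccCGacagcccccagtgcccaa
Hoxd8: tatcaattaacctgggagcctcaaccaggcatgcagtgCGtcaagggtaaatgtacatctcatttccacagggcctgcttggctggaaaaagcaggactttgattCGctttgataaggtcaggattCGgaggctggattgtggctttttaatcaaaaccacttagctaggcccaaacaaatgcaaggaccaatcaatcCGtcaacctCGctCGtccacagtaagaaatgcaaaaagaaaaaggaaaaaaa
Hoxa6: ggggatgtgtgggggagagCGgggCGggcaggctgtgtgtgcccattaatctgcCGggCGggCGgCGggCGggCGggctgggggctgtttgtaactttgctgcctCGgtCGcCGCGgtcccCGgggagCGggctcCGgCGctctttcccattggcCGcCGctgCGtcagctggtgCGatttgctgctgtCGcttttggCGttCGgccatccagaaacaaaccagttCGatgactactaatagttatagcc
Hoxb4: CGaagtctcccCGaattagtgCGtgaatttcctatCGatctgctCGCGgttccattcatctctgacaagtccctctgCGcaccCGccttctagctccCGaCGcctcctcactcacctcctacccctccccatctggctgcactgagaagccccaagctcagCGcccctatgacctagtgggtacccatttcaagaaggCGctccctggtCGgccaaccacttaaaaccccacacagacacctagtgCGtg
The Hoxc4 window holds 8 CG dinucleotides, and 43.0% of the 32841 promoters in the table hold at least as many. The Hoxd8 window holds 6, a number that 50.4% of promoters reach, the Hoxa6 window holds 24, which 12.0% reach, and the Hoxb4 window holds 14, which 29.4% reach. The genes at 0 in WT lay on both sides of Hoxb4. Entries were found for 12 of the 24 Hox genes, 13 in all, and they had 2 to 28 CG dinucleotides with a median of 8, beside a median of 6 over all promoters. The sequence TGATTNAT, searched on both strands as a form of the joint site of Pbx and Hox proteins, occurred in 2 of the 13 entries (Hoxa2 and Hoxd11) and in 2.83% of all promoters. No measurement of methylation or binding at these windows was analysed here.

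Hoxb7 and Hoxc9 made up most of the WT counts and were not called in either direction. Hoxb7 (ENSMUSG00000038721), a mid-cluster gene of the trunk, was counted 25, 23 and 25 times in WT and 42 and 30 times in R6/1. The higher counts in R6/1 came with deeper libraries, and in CPM the groups overlapped, at 1.15 ± 0.047 in WT (SD, n = 3) and 1.06 ± 0.150 in R6/1 (SD, n = 2). The log2 fold change was -0.12 with a standard error (SE) of 0.27 (edgeR adjusted p = 0.784), and it turned to 0.0016 when libraries were scaled by their totals alone and to 0.018 without R6/1 replicate 2. The ratio of pooled counts was 0.936, with an exact conditional 95% interval of 0.666 to 1.31 for counting error.

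Hoxc9 (ENSMUSG00000036139), which in the spinal cord sets the boundary between limb and thoracic motor neurons, had 10, 12 and 6 counts in WT and 24 and 14 in R6/1. Its level of 0.448 ± 0.178 CPM in WT overlapped that of 0.558 ± 0.157 CPM in R6/1. The log2 fold change was 0.33 (SE 0.45, edgeR adjusted p = 0.633), and the pooled ratio was 1.29 with an interval of 0.770 to 2.18. The log2 fold change of Hoxc9 was not stable: it was 1.12 with the choroid plexus covariate, 1.04 without WT replicates 1 and 2 together, 0.63 without WT replicate 2, 0.58 without R6/1 replicate 2, 0.059 without WT replicate 3 and 0.0049 without R6/1 replicate 1. Hoxb7 and Hoxc9 together took 101 of 140 Hox counts in WT, or 72.1% (exact Clopper-Pearson interval 63.9% to 79.4%), and 110 of 259 in R6/1, or 42.5% (36.4% to 48.7%). Neither gene was called under any alternative that gave it a value, with adjusted p from 0.691 to 0.997 for Hoxb7 and from 0.255 to 0.997 for Hoxc9.

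Hoxa7 (ENSMUSG00000038236), another mid-cluster gene of the trunk, had 3, 0 and 2 counts in WT and 7 and 12 counts in R6/1. Both R6/1 libraries were above every WT library, at 0.289 ± 0.133 CPM against 0.075 ± 0.068 CPM. The pooled ratio was 3.61 (counting interval 1.30 to 12.4). With no filter its log2 fold change was 1.82 (SE 0.83), which did not pass (edgeR adjusted p = 0.163). Leaving out each library in turn moved the pooled ratio between 2.49 and 5.84, the highest without WT replicate 1.

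Read per kb of the authors' gene length, the order of Hox levels in WT was Hoxb7 at 0.547, Hoxc9 at 0.298 and Hoxa7 at 0.093 CPM per kb. In R6/1 it was Hoxb7 at 0.507, Hoxc9 at 0.371 and Hoxa7 at 0.359 CPM per kb, followed by Hoxc6 at 0.2004, Hoxc5 at 0.180 and Hoxc4 at 0.175 CPM per kb. The last 3 lay close together although their raw counts differed, since the authors' length is 0.896 kb for Hoxc6 and 2.92 kb for Hoxc5. Exact intervals on the pooled R6/1 counts were wide, 6.20 to 20.96 for the 12 counts of Hoxc6 and 23.5 to 47.5 for the 34 counts of Hoxc5, so their order per length was not resolved.

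The other 18 Hox genes had 1 to 13 counts over all 5 libraries, and 9 of the 24 had at most 3. At the front end of the clusters, Hoxa2, which specifies the second branchial arch and hindbrain segments, had 0, 1 and 0 counts in WT and 2 and 2 in R6/1. Hoxd1 had 2, 0 and 2 counts in WT and 5 and 3 in R6/1. Their pooled ratios of 3.80 (0.376 to 187) and 1.90 (0.508 to 8.61) had intervals that include no difference. Hoxb4 went the other way in pooled counts, with 4, 2 and 2 counts in WT and 5 and 0 in R6/1, a ratio of 0.593 (0.153 to 2.06). Hoxb9, a gene of the thoracic level, had 1, 4 and 1 counts in WT and 0 and 1 in R6/1, a ratio of 0.158 with an interval up to 1.30. Hoxc8 (2, 1 and 0 in WT, 3 and 3 in R6/1) and Hoxd11 (5, 1 and 0 in WT, 4 and 2 in R6/1) had ratios of 1.90 (0.405 to 11.7) and 0.949 (0.254 to 3.55). Hoxa5, Hoxa9 and Hoxb3 had at most 2 counts in any library and were counted in both groups.

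By CPM, both R6/1 libraries lay above every WT library for 9 of the 24 Hox genes, namely Hoxa2, Hoxa6, Hoxa7, Hoxb6, Hoxc4, Hoxc5, Hoxc6, Hoxd1 and Hoxd8, against 21.6% of all rows. Both lay below every WT library for 1, Hoxb9, against 20.2% of rows. Without R6/1 replicate 1 the first count was 14. No median fold change over the 24 genes is given, because 10 of them were at 0 in WT.

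**Figure D2:**
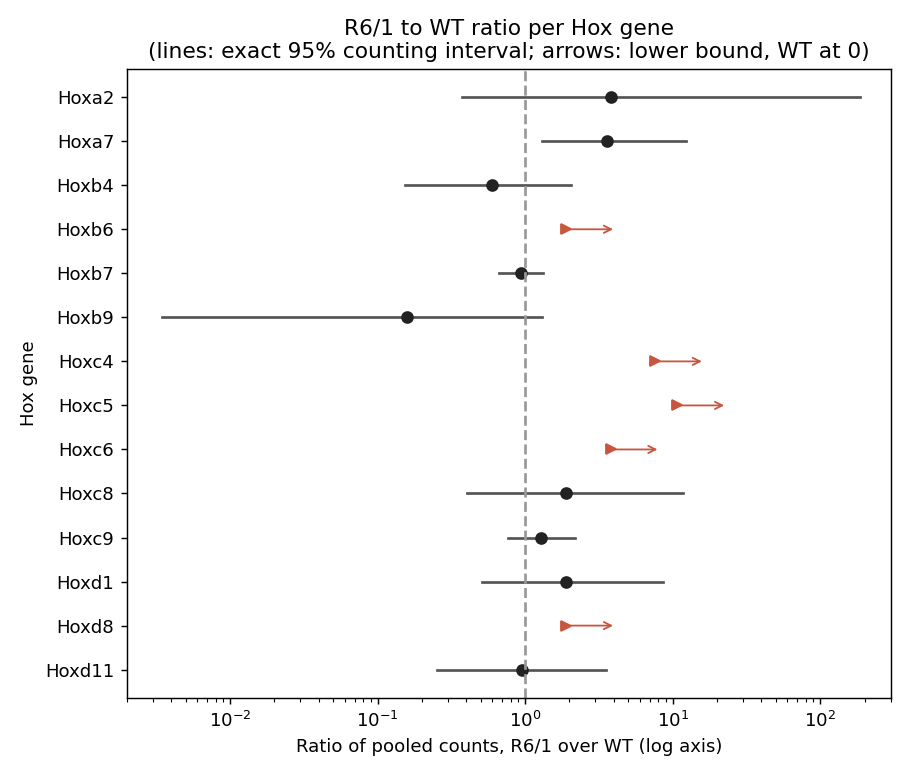
Ratio of pooled counts, R6/1 over WT, on a log axis for 14 Hox genes with a ratio or a lower bound, with exact 95% counting intervals as lines and arrows from the lower bound where WT was at 0. The interval of Hoxa7 (1.30 to 12.4) lies above 1, those of Hoxb7 and Hoxc9 span 1, and the bounds for Hoxc4 to Hoxc6 lie at 3.80 or above.

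Summed by cluster, the pooled ratio was near 1 for Hoxb and above 3 for Hoxa and Hoxc, whose intervals overlapped. The Hoxc genes had 12, 13 and 6 counts in WT and 54 and 60 in R6/1, a pooled ratio of 3.49 (counting interval 2.33 to 5.37). Both R6/1 libraries were above every WT library, and 70 of the 114 R6/1 counts were those of Hoxc4, Hoxc5 and Hoxc6. The Hoxb genes had 30, 29 and 29 counts in WT and 54 and 38 in R6/1, a ratio of 0.992 (0.733 to 1.34) that overlapped between the groups in CPM. Hoxb7 gave 73 of the 88 WT and 72 of the 92 R6/1 counts. Without Hoxb7 the other 7 Hoxb genes had 15 counts in WT and 20 in R6/1, a ratio of 1.27 with a wide interval (0.616 to 2.66).

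The Hoxa genes had 5, 2 and 3 counts in WT and 12 and 20 in R6/1, a ratio of 3.04 (1.46 to 6.92), and 19 of the 32 R6/1 counts were those of Hoxa7. The Hoxd genes had 8, 1 and 2 counts in WT and 11 and 10 in R6/1, a ratio of 1.81 (0.835 to 4.16). WT replicate 1 lay above both R6/1 libraries in summed Hoxd CPM, and the ratio of mean levels was 1.88 with it and 4.40 without it. Over all 24 genes the summed level was 2.203 ± 0.349 CPM in WT (SD, n = 3) and 3.87 ± 0.311 CPM in R6/1 (SD, n = 2), a pooled ratio of 1.76 (1.42 to 2.17).

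**Figure D3:**
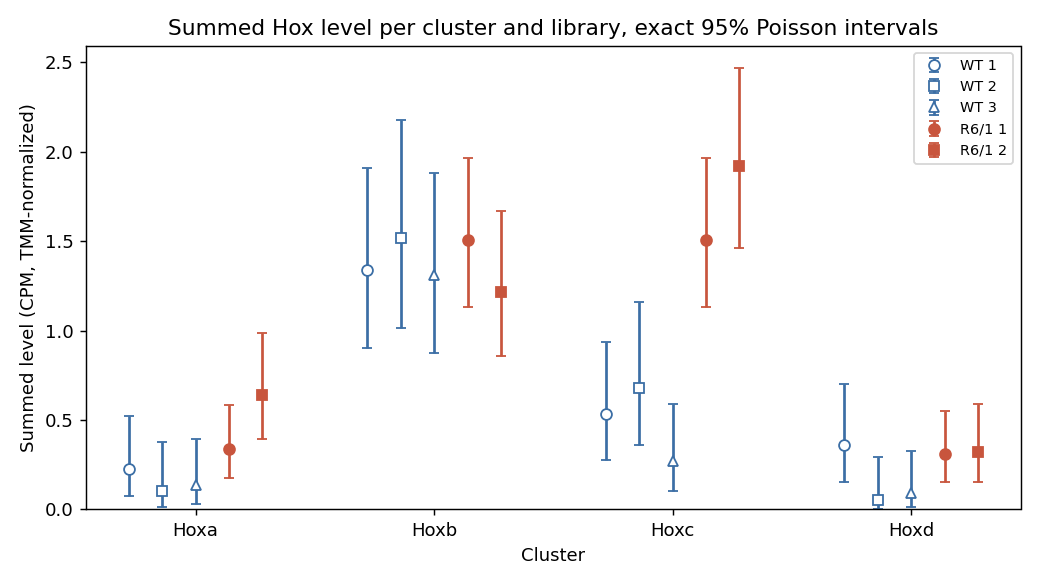
Summed level of the Hox genes of each cluster (x axis) in CPM (y axis) for each library, with exact 95% Poisson intervals as bars, open symbols for WT and filled symbols for R6/1. The Hoxc sums of both R6/1 libraries lie above those of all WT libraries, and the Hoxb sums overlap.

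Grouped by position along the cluster, a division chosen after the values were seen, the 9 genes numbered 1 to 4 had 7, 4 and 6 counts in WT and 28 and 22 in R6/1, a ratio of 2.79 (1.58 to 5.16). The 10 genes numbered 5 to 8 had 31, 24 and 27 counts in WT and 75 and 87 in R6/1, a ratio of 1.87 (1.43 to 2.48). The 5 genes numbered 9 to 13 had 17, 17 and 7 counts in WT and 28 and 19 in R6/1, a ratio of 1.09 (0.700 to 1.70). The first 2 sums did not overlap between the groups in CPM and the third did. Hoxc4 alone gave 24 of the 50 R6/1 counts in the first group. Hoxb7 gave 73 of the 82 WT and 72 of the 162 R6/1 counts in the second. In the third, Hoxc9 gave 28 of the 41 WT and 38 of the 47 R6/1 counts. The ratios therefore depend on which group holds these genes, and the difference between the groups of genes was not tested.

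Long noncoding genes that lie within the Hox clusters were looked up by Ensembl identifier. Hotairm1 (ENSMUSG00000087658), a noncoding transcript of the Hoxa cluster, had 1, 0 and 1 counts in WT and 11 and 9 in R6/1. Both R6/1 libraries lay above every WT library in CPM, as for 21.6% of all rows. The pooled ratio was 9.49 with an interval of 2.31 to 83.7. With no filter its edgeR adjusted p was 0.0269, where 7.6% of all rows were called higher. Its values with a library left out or with the choroid plexus covariate were not examined. Haglr (ENSMUSG00000075277), a noncoding gene of the Hoxd cluster, had 3, 5 and 1 counts in WT and 12 and 10 in R6/1, a ratio of 2.32 (1.03 to 5.72) that did not pass (edgeR adjusted p = 0.283). Hoxaas2 had 0 counts in each WT library and 2 and 2 in R6/1. Hoxd3os1, Hoxb3os, Evx1os and Halr1 had at most 2 counts in any library, as did Evx1 and Evx2, homeobox genes at the ends of the Hoxa and Hoxd clusters. Haglr, Hoxaas2, Hoxd3os1, Evx1os and Halr1 were looked up after the table had been seen. The libraries kept the strand, but whether the counting used it is not given in the sources used here, so reads of an antisense gene and of its Hox neighbour cannot be told apart.

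Of the genes that act with Hox proteins or on their clusters, the TALE cofactors were all counted highly enough to be tested. Of the 9, 2 fell and 0 rose in R6/1, against 12.8% and 9.72% of all tested genes. Their median log2 fold change was -0.14, beside -0.01 over all tested genes. Meis2, a cofactor also used in developing striatal neurons, went from 479 ± 33.8 CPM in WT to 327 ± 26.4 CPM in R6/1, a log2 fold change of -0.56 (SE 0.09, edgeR adjusted p = 0.00541). Meis3 went from 26.6 ± 4.17 to 19.02 ± 0.322 CPM, a log2 fold change of -0.49 (SE 0.14, edgeR adjusted p = 0.0419). The list had 0 falls when R6/1 replicate 2 was left out. It had 1 when R6/1 replicate 1, WT replicate 1 or WT replicate 3 was left out or when the choroid plexus covariate was added. Medium spiny neuron markers moved with these falls, since 10 of 10 fell in R6/1 (median log2 fold change -1.85), and their part in the result was not tested.

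Of the 16 Polycomb genes tested, 7 were higher in R6/1 and 1 was lower, against 9.72% and 12.8% of all tested genes, and 8 did not pass. Their median log2 fold change was 0.13. The risers included Cbx7, a chromobox protein of Polycomb repressive complex 1 that reads the histone mark. Cbx7 had 716, 756 and 714 counts in WT and 1983 and 1618 in R6/1, and it went from 34.6 ± 4.29 to 53.5 ± 2.51 CPM, a log2 fold change of 0.62 (edgeR adjusted p = 0.00988). Also higher were Cbx8, Phc1 and Bmi1 of the same complex and Eed and Suz12, core subunits of Polycomb repressive complex 2. Ezh2, the histone methyltransferase of that complex, fell from 35.5 ± 1.65 to 22.4 ± 4.49 CPM, a log2 fold change of -0.68 (SE 0.13, edgeR adjusted p = 0.0121), while its relative Ezh1 did not pass.

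These Polycomb counts also depended on single libraries, and so did the number of calls over all genes. That number was 3882 in the main test, 2664 without WT replicate 1, 2517 without WT replicate 3 and 1832 with the choroid plexus covariate. It was lower still without either R6/1 library. Leaving out R6/1 replicate 1 or 2 left 1 riser each, and leaving out WT replicate 1 or 3 left 4 and 3. With the choroid plexus covariate 3 rose and 0 fell, and without WT replicates 1 and 2 together 4 rose and 1 fell. The call for Ezh2 was lost without R6/1 replicate 2 (log2 fold change -0.48) and with the covariate (log2 fold change -0.66). The call for Cbx7 was lost without R6/1 replicate 1 or 2 (log2 fold change 0.57 and 0.67) and kept with the covariate (0.74). Of 8 trithorax-type genes, which oppose Polycomb at Hox clusters, 1 rose and 0 fell, close to the 9.72% of all tested genes that rose. Their median log2 fold change was 0.19. Ash2l, a subunit of histone H3 lysine methyltransferase complexes, went from 57.2 ± 1.87 to 74.7 ± 0.781 CPM, a log2 fold change of 0.38 (edgeR adjusted p = 0.0126), a call lost without either R6/1 replicate or with the covariate, where the log2 fold change was still 0.37 to 0.40. Cdx1, Cdx2 and Cdx4, activators of trunk Hox genes, have no row.

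**Figure D4:**
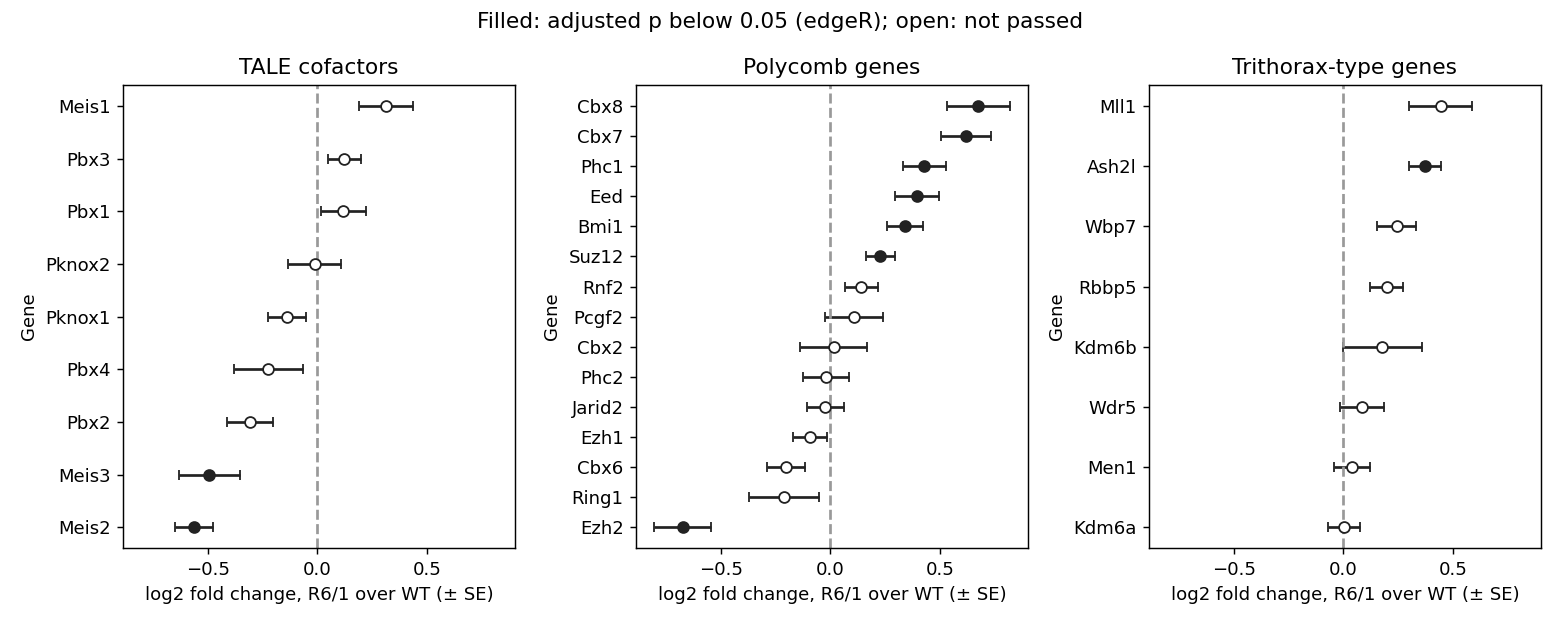
Log2 fold change of R6/1 over WT (x axis) with its standard error for the TALE cofactors, 15 of the 16 Polycomb genes and the trithorax-type genes (y axis), filled where the edgeR adjusted p was below 0.05. Among the Polycomb genes shown, 6 filled points lie to the right of 0 and Ezh2 lies to the left at -0.68, and Meis2 and Meis3 are the filled cofactors.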

How the data were processed

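Per the file headers, the deposited table of 26369 rows holds raw read counts per Ensembl gene for 3 WT and 2 R6/1 libraries. Tools named in the submitters' processing notes are TopHat 1.4.1, HTSeq 0.5.4p3, CASAVA 1.8.2 and DESeq2 1.0.19, with the build mm9. For the counting, neither the annotation release nor the strand setting nor the handling of multiply matching reads was given in the sources used here. The deposited log2 fold changes and p-values of the authors' own comparison, per the file headers, are quoted only where their table is named. The authors also deposited gene lengths and a normalized signal per gene. Of these the lengths were used, for levels per kb.

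The counts were tested with the quasi-likelihood test of edgeR 4.0.16 in R 4.3.3, with TMM normalization and the filter filterByExpr. The filter asks for a total of at least 15 counts. It also asks, in enough libraries, for a CPM worth at least 10 counts at the median library size. A library deeper than the median therefore needs more than 10 counts. Genotype was the one factor, with a Benjamini-Hochberg threshold of 0.05 over all genes tested. The steps were tested on simulated data. SEs are those implied by the F statistic. Alternatives were DESeq2 1.42.0, limma-voom (limma 3.58.1), other scalings and filters, leaving out libraries, and a choroid plexus covariate. The fit with no filter as a test of single Hox genes was chosen after seeing the data. Total counts per library were 23046266, 19630036 and 22963042 in WT and 34379064 and 29871306 in R6/1. Poisson, Clopper-Pearson and ratio intervals are at the 95% level and, like the floor of 3 counts, cover counting error only. Reads copied by PCR are not independent molecules.

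Hox genes with at least 20 counts or a call are given per library, and the others by counts and ranges. From each companion list up to 3 called members are named by smallest adjusted p, and members named beyond that were picked with their values known. The Hox genes and the companion lists were chosen with earlier results of these data known. GENCODE M21 (GRCm38) served for names, overlaps and transcript sequence only, since it differs from the authors' build. A few of the listed genes are not reported here and are left out of the plots.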

Additional observations from a re-analysis of the deposited data

How the results depend on the processing

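The number of genes called, 3882, was 2517 without WT replicate 3, 1152 without R6/1 replicate 1, 1088 without R6/1 replicate 2 and 1832 with the choroid plexus covariate, and leaving out 1 library gave 1088 to 4853. The count of Hox genes called higher was 0 and became 3 with no filter, and it was 0 under each single library left out. The count of Hox genes with both R6/1 libraries above every WT library, 9, ranged from 9 to 14 with 1 library left out. The ratio of summed Hoxd levels, 1.88, ranged from 1.401 to 4.40. The log2 fold change of Hoxb7, -0.12, changed sign to 0.0016 with library totals only and ranged from -0.27 to 0.018 with 1 library left out (0.018 without R6/1 replicate 2). Of 94 alternative values of the results that answer a comparison, all counts or ratios, 84 stayed within a fixed fold limit of the main value. The limit is loose. It took 2664 genes called without WT replicate 1 as kept, and 2 Hox calls with no filter in place of 3. The counts of Hox calls with 1 library left out are among the 84, and with 2 testable genes a count of 0 says nothing about stability. Of 487 alternative values of single genes and lists, 353 kept their direction and side of the threshold or stayed within that limit. The cause of the changes was not tested.

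Counts of 22 of the 24 Hox genes were too low for the main test, and with 2 R6/1 libraries 1 library decided several calls. Where a library is left out and 1 R6/1 library remains, it is assumed to vary like WT. No paired analysis was possible because no label pairs a WT with an R6/1 library: the replicate numbers used here follow the order of the samples, and the numbers in the titles differ between all libraries.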

Other observations

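The listed genes that flank the Hox clusters had sums of 713 to 797 CPM in WT and 812 to 815 CPM in R6/1. Cbx5, on the Hoxc side, alone gave 407 to 471 CPM of the WT sums. On the Hoxb side Skap1 (0.848 to 1.72 CPM in WT) and Ttll6 (0.451 to 2.36 CPM in WT) were low, and Prac has no row. Of 9 tested, 1 rose and 1 fell, close to the 9.72% and 12.8% of all tested genes, and the other 7 did not pass. Their median log2 fold change was 0.10. Hibadh, a valine breakdown enzyme encoded beside the Hoxa cluster, went from 46.7 ± 4.08 to 62.1 ± 2.50 CPM (SD, n = 3 and 2), a log2 fold change of 0.40 (edgeR adjusted p = 0.0246). Smug1, a DNA repair glycosylase gene near the Hoxc cluster that gained counts, went from 30.3 ± 0.680 to 22.7 ± 0.472 CPM, a log2 fold change of -0.43 (edgeR adjusted p = 0.0119). The call for Hibadh was lost without WT replicate 1 (edgeR adjusted p = 0.0669), without WT replicate 3 (0.0750) and with the choroid plexus covariate (0.0536). That for Smug1 was lost with the covariate (edgeR adjusted p = 0.0541). Both calls were also lost without R6/1 replicate 1 or 2, with log2 fold changes of 0.36 and 0.44 for Hibadh and -0.40 and -0.45 for Smug1.

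Of 9 tested homeobox and forkhead genes that mark forebrain position, 0 rose and 1 fell (median log2 fold change 0.20). Over all tested genes 9.72% rose and 12.8% fell, the shares to set beside each list in this paragraph. Gsx1, a homeobox gene of striatal progenitors and too low for the test, had 0, 1 and 0 counts in WT and 8 and 3 in R6/1, and it was named after its values were seen. The 10 tested markers of meningeal fibroblasts had 0 risers and 1 faller (sums of 34.2 to 74.5 CPM in WT and 34.8 to 43.0 CPM in R6/1). The 5 of blood had 0 and 0 (31.4 to 69.5 CPM and 44.5 to 48.5 CPM). Of the 10 choroid plexus genes 0 rose and 4 fell in R6/1, and 0 to 10 fell when 1 library was left out.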
